A study of Mus musculus with 106 samples.

Results

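The comparison described here sets 7 single cells of the Early/Mid-Streak (E/MS) stage, titled as lineage-restricted precursors of primordial germ cells (PGCs), against 8 single cells titled as posterior epiblast of the pre-streak (PS) stage. These 15 cells, chosen by their titles alone, are 15 of the 106 cells of a series that follows the mouse germ line with 1 Affymetrix array per cell. Both groups came from wild-type C57BL/6 embryos. Per the labels, cells freed from dissected fragments by trypsin and EDTA were taken at random and their cDNA was amplified by PCR before labelling. E/MS precursors were then kept for transcripts of Blimp1 (Prdm1) and Oct4 (Pou5f1), and PS epiblast cells for Oct4 and T, with a screen by Blimp1 and fragilis (Ifitm3) also named. Differences in those genes follow from the choice of cells and are no findings, and T was not analysed here. Since no label ties a cell to an embryo or litter, each group is treated as 1 sample, and every difference below is a value of these 15 cells without a test. The stages and the choice of cells, by Blimp1 in E/MS precursors and by T in PS cells, differ together and cannot be told apart.

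The posterior epiblast is the epithelial sheet from which the primitive streak forms. Wnt, Nodal and BMP signals induce T-box, Mix and Mesp factors there, and cells that enter the streak lose E-cadherin and leave the epithelium as mesoderm. PGC precursors arise at the proximal, posterior end of this region under BMP signalling, where Blimp1, a transcriptional repressor, marks them before the germ cell genes are active.

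Values are log2 array signal, with signals below the background raised to a floor of 6.13, and a gene was detected in a cell when it exceeded that cell's own detection limit. A difference is the mean of E/MS precursors minus the mean of PS cells on this scale, and the floor understates the difference of low genes. Rare transcripts can be lost when the cDNA of 1 cell is amplified, so a value at the floor means only that the gene was not detected. Detection in 0 of 7 E/MS precursors allows a share of up to 41.0% and detection in 0 of 8 PS cells one of up to 36.9% (exact Clopper-Pearson 95% intervals, counting error only).

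E/MS precursors had between 5848 and 7694 detected genes per cell, and PS cells between 6847 and 7358. E/MS replicate 6 stood apart, with 9776 detected probe sets where the other 14 cells had between 11297 and 13137. E/MS replicate 5 stood apart in its genes. Its mean correlation across genes was 0.71 with PS cells and 0.69 with E/MS precursors. Replicate 6 had values of 0.60 with both groups. The 0.69 of replicate 5 includes its correlation with replicate 6, so these means do not place replicate 5 nearer to either group. Values that these cells moved most are therefore also given without both, a choice made after their values were seen. Of the 73 named genes that differed by at least 1 log2 unit, 73 kept their direction and 72 also that size without both; the exception was Smad3. Xist, which coats the X chromosome that is silenced in female cells, was detected in 0 of 7 E/MS precursors and 8 of 8 PS cells. A Y-linked transcript was detected in 6 of 7 E/MS precursors (replicate 1 had neither) and 0 of 8 PS cells. Sex and stage therefore cannot be told apart in this comparison.

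The markers separated the groups in most cells. They are among the 15 largest differences in their direction, so they are no check of the labels. Mesp1 and Mixl1 are also not particular to germ cell precursors, since they averaged 11.95 and 9.64 in posterior mesoderm of the Early/Mid-Bud stage. Mesp1 and Mixl1, factors of the primitive streak and nascent mesoderm, were high in E/MS precursors, and Utf1, a chromatin factor of pluripotent cells, was high in PS cells. Mesp1 lay at 7.54 to 12.83 (median 12.37) in E/MS precursors and 6.27 to 7.64 (median 6.40) in PS cells, a difference of 4.98 (6.00 without replicates 5 and 6). The lowest E/MS precursor, replicate 5 at 7.54, lay below the highest PS cell, and the other 6 lay above 10. Mixl1 lay at 6.13 to 12.24 (median 11.06) in E/MS precursors and 6.13 to 8.95 (median 6.65) in PS cells, with replicate 5 at the floor and the other 6 precursors above every PS cell. Its difference was 3.50 with all cells and 4.46 without replicates 5 and 6. Utf1 was detected in 1 of 7 E/MS precursors and 8 of 8 PS cells. It lay at 6.13 to 7.41 (median 6.13) in E/MS precursors and 8.22 to 11.65 (median 9.58) in PS cells, without overlap, a difference of -3.58. Of the genes used to choose cells, Pou5f1 averaged 11.32 ± 0.38 in E/MS precursors and 11.56 ± 0.36 in PS cells (SD, n = 7 and n = 8), and Prdm1 was detected in 7 of 7 E/MS precursors and 1 of 8 PS cells.

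The promoters of 3 genes that differ most, Mesp1 among those higher and Pim2 and Cldn6 among those lower in E/MS precursors, are shown because they hold copies of the motifs searched, those of T-box, TCF/LEF and octamer factors and of Snail factors, which repress E-cadherin. Sequences are from RefSeq on GRCm38.p6, from 250 bases before to 50 bases after the gene start, 5′ to 3′ along the gene. Capitals mark matches on either strand to the T-box motif TCACACCT, the shorter T-box motif AGGTGT, the Snail E-box CACCTG, the TCF/LEF motif CTTTGA or the octamer ATGCAAAT bound by Oct4. The T-box motifs overlap each other, and AGGTGT can overlap the E-box. The Mesp1 promoter (chr7:79793541-79793840, minus strand), the Cldn6 promoter (chr17:23679115-23679414, plus strand) and the Pim2 promoter (chrX:7878056-7878355, plus strand) read:
Mesp1: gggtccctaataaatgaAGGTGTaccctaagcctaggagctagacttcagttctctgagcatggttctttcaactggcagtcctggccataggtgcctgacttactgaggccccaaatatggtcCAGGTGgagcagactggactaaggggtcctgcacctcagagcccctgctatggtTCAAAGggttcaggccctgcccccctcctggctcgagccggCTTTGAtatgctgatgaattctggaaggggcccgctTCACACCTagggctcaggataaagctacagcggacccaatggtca
Cldn6: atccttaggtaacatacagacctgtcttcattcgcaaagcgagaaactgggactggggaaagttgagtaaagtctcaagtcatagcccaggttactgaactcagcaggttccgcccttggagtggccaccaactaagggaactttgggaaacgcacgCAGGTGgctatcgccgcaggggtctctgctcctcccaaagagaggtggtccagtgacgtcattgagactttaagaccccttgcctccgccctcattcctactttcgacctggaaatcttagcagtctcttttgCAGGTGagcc
Pim2: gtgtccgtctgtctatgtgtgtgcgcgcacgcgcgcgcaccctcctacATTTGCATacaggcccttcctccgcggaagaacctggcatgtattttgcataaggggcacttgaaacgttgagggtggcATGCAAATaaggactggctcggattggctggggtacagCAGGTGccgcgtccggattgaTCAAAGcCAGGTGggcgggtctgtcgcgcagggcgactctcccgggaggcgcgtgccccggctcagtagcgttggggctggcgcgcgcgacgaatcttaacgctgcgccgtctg

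The Mesp1 window holds the T-box motif at position 6 after the start, AGGTGT at -233, 1 E-box and 2 TCF/LEF matches. The Cldn6 window holds 2 E-boxes, at positions -93 and 41. The Pim2 window holds 2 octamers, at -202 and -123, with 2 E-boxes and 1 TCF/LEF match. Among all 27025 promoters in the table, 1.27% hold the T-box motif, 13.9% AGGTGT, 20.03% the E-box, 16.2% the TCF/LEF motif and 1.75% the octamer. Of the 15 genes with the largest positive differences, 7 had a promoter in the table, and of the 15 with the largest negative differences, 10 had one. AGGTGT was in 4 of the 7 (Mesp1, Greb1, Dsp and Frzb) and 0 of the 10. The E-box was in 4 of the 7 (Mesp1, Msx1, Greb1 and Dsp) and 2 of the 10 (Cldn6 and Pim2). The TCF/LEF motif was in 3 of the 7 (Mesp1, Meis2 and Frzb) and 1 of the 10 (Pim2). The Smad motif GTCTAGAC, in 0.211% of all promoters, and the sterol element core TCACNCCAC, in 1.22%, were in 0 of these 17 windows. Such matches describe letters in a window and are not binding sites.

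Over all 18193 genes, 485 (2.67%) were higher and 534 (2.94%) lower in E/MS precursors by at least 1 log2 unit. Without replicates 5 and 6 the counts were 732 and 599. Among the 9008 genes that 4 or more of the 15 cells detected, 467 (5.18%) were higher and 530 (5.88%) lower, and the median difference was -0.04. Differences of at least 2 log2 units were found in 54 genes higher and 60 lower in E/MS precursors. Ranges of the groups did not overlap in 12 detected genes higher (0.133%) and 22 lower (0.244%) in E/MS precursors.

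**Figure D1:**
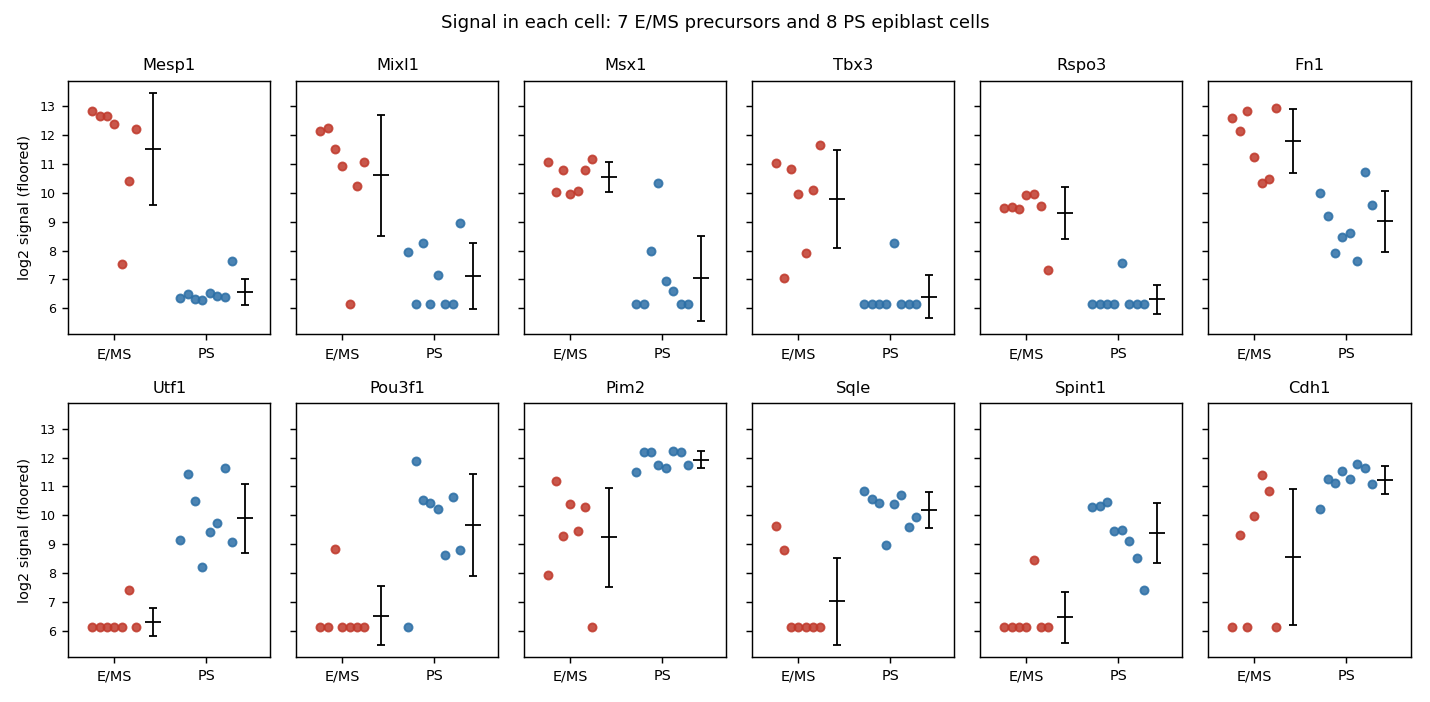
Log2 signal of 12 genes in each cell (points; vertical axis, floored at 6.13), with 7 E/MS precursors left and 8 PS epiblast cells right in each panel; black marks are group means with SD over cells. Mesp1, Mixl1, Msx1, Tbx3, Rspo3 and Fn1 are higher in most E/MS precursors, and Utf1 and Pim2 are lower in all of them.

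Transcription factors of the streak were among the largest positive differences. Of the 25 measured genes of the list for primitive streak and nascent mesoderm, 10 were higher and 0 lower by at least 1 log2 unit, with a list median of 0.53, against a median of 0 over all genes. The median was 0.47 with Lhx1, undetected in PS cells, at its lower bound, and 0.98 without replicates 5 and 6. Mesp2, Cdx1, Cdx2, Dll1 and Foxc1 were also undetected in PS cells but had no bound above 1-fold. They kept their floored difference, so 0.47 is not a lower limit. Tbx3, a T-box repressor, lay at 7.06 to 11.67 (median 10.09) in E/MS precursors and 6.13 to 8.26 (median 6.13) in PS cells. It was detected in 7 of 7 E/MS precursors and 1 of 8 PS cells, and replicates 2 and 5 lay below the single positive PS cell. Evx1, a homeobox gene of the posterior streak, lay at 10.06 to 11.36 (median 10.67) in E/MS precursors and 6.13 to 10.69 (median 9.03) in PS cells. PS cells already held Evx1 in 6 of 8 cells, so the groups overlapped, and the difference was 2.10.

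Lhx1, a LIM-homeobox factor of anterior streak and mesoderm, was detected in 5 of 7 E/MS precursors and 0 of 8 PS cells, at least 1.16-fold higher. It lay at 6.13 to 11.72 (median 9.73) in E/MS precursors, with replicates 5 and 6 at the floor. Aplnr, the apelin receptor of migrating mesoderm, had a difference of 2.64 (3.52 without replicates 5 and 6) and Hand1, a bHLH factor of extraembryonic mesoderm, one of 2.43. Eomes, the T-box factor that acts upstream of Mesp1, was not among the 10 with all cells. Its difference was 0.17 with all cells and 1.11, past 1 log2 unit, without replicates 5 and 6. It averaged 11.18 ± 2.19 in E/MS precursors and 11.01 ± 1.53 in PS cells (SD, n = 7 and n = 8). The lowest values were those of E/MS replicate 6 at 6.26 and PS replicate 4 at 7.41, while the other 13 cells lay above 10. Fgf8 was detected in 5 of 7 E/MS precursors and 5 of 8 PS cells, with a difference of -0.28. Gsc, a factor of the anterior streak, was detected in 2 of 7 E/MS precursors and 2 of 8 PS cells.

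Some mesenchymal genes were higher and some epithelial genes lower. Of the 16 mesenchymal genes, 6 were higher (Cdh11, Pdgfra, Fn1, Cdh2, Snai1 and Vim) and 1 lower (Mmp2), with a median of 0.50. The other 9 genes differed by under 1 log2 unit. This median was 0.36 with Cdh2 and Cdh11 at their bound and 0.69 without replicates 5 and 6. Zeb1 and Zeb2, undetected in PS cells, had no bound above 1-fold and kept their floored difference. Of the 26 epithelial genes, 10 were lower, 1 higher and 15 under 1 log2 unit, with a median of -0.62. This epithelial median was -0.29 without PS replicate 2. Snai1, the repressor of E-cadherin, lay at 6.13 to 10.84 (median 9.95) in E/MS precursors and 6.13 to 8.31 (median 6.26) in PS cells. Cdh1, E-cadherin itself, lay at 6.13 to 11.41 (median 9.30) in E/MS precursors and 10.20 to 11.77 (median 11.26) in PS cells. It was at the floor in replicates 1, 3 and 7 and highest in replicates 5 and 6, so the groups overlapped through those cells. Its difference was -2.67 with all cells and -3.70 without replicates 5 and 6.

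Cdh2, N-cadherin, was detected in 4 of 7 E/MS precursors and 0 of 8 PS cells, at least 1.03-fold higher. The cells positive for it were replicates 1, 2, 3 and 7, at 10.18 or above. Replicate 2 held both cadherins, with Cdh1 at 9.30 and Cdh2 at 10.18. Cdh11, a cadherin of mesenchyme, was detected in 5 of 7 E/MS precursors and 0 of 8 PS cells and was at least 2.76-fold higher. Fn1, the matrix protein fibronectin, lay at 10.33 to 12.93 (median 12.15) in E/MS precursors and 7.64 to 10.72 (median 8.90) in PS cells. Its difference was 2.78 with all cells and 3.33 without replicates 5 and 6. Pdgfra, a receptor of paraxial and extraembryonic mesoderm, was detected in 5 of 7 E/MS precursors and 1 of 8 PS cells.

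The epithelial genes that were lower included claudins and surface protease inhibitors. Spint1, an inhibitor of matriptase, lay at 6.13 to 8.47 (median 6.13) in E/MS precursors and 7.43 to 10.46 (median 9.47) in PS cells and was detected in 1 precursor, replicate 5. Cldn6, a tight junction claudin, averaged 6.97 ± 1.23 in E/MS precursors and 9.76 ± 0.94 in PS cells (SD, n = 7 and n = 8). Epcam, an adhesion molecule of epithelia, averaged 9.27 ± 1.35 in E/MS precursors and 10.92 ± 0.62 in PS cells and was detected in all 15 cells. Tjp1, a tight junction scaffold, was detected in all 15 cells with a difference of -0.03. The 1 epithelial gene that was higher, Dsp, encodes the desmosomal linker desmoplakin. It had a difference of 2.96, with 7 of 7 E/MS precursors and 3 of 8 PS cells positive. Of its other probe sets, 1 had a difference of 3.13 and 1, detected in all 15 cells, of 0.09.

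**Figure D2:**
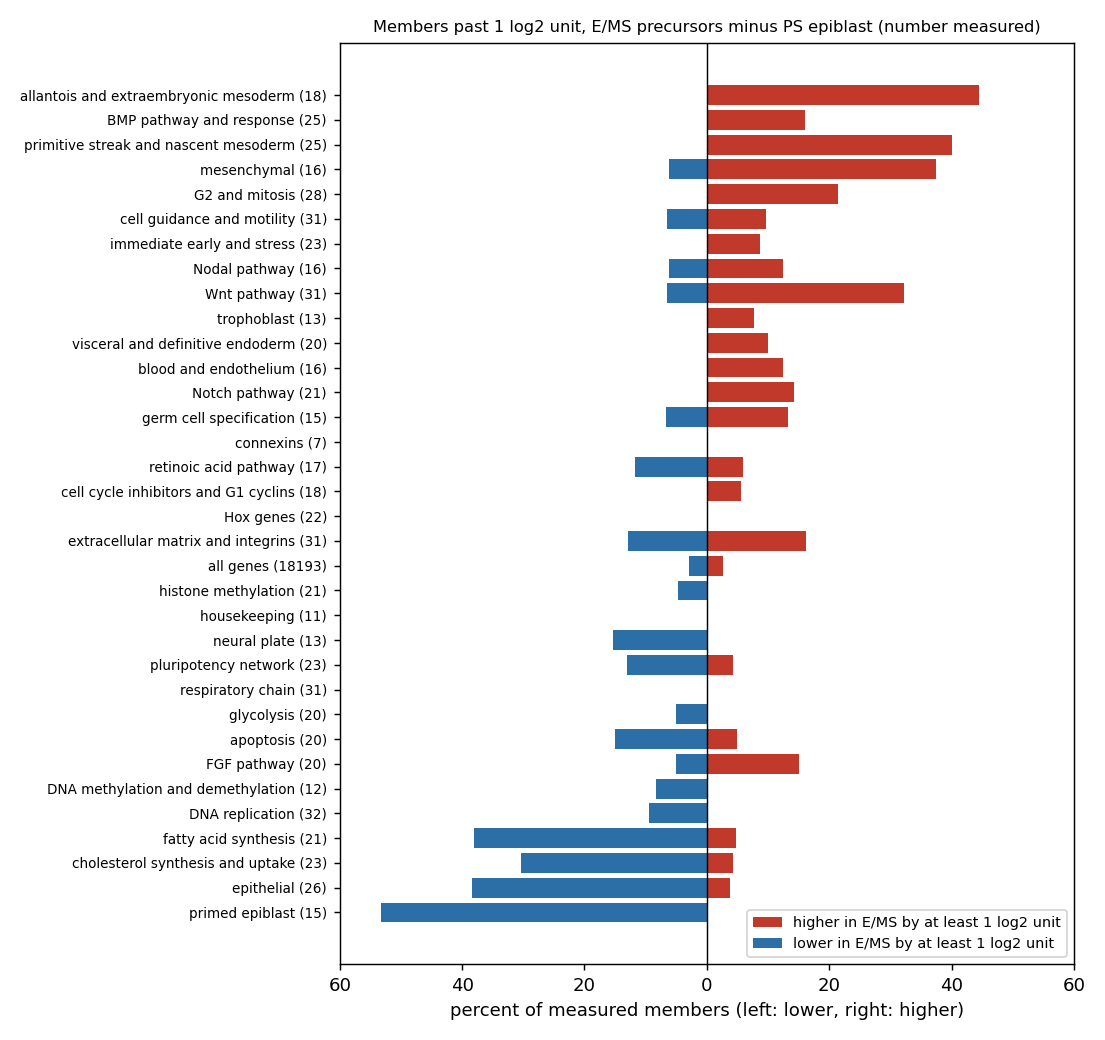
Percent of measured members of each gene list that are higher (right) or lower (left) in E/MS precursors by at least 1 log2 unit, with the number of measured members in brackets; the list of sex-linked transcripts is not drawn. The lists of the streak (10 of 25 higher), allantois (8 of 18 higher), primed epiblast (8 of 15 lower) and epithelium (10 of 26 lower) lie far from the bar of all 18193 genes.

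**Figure D3:**
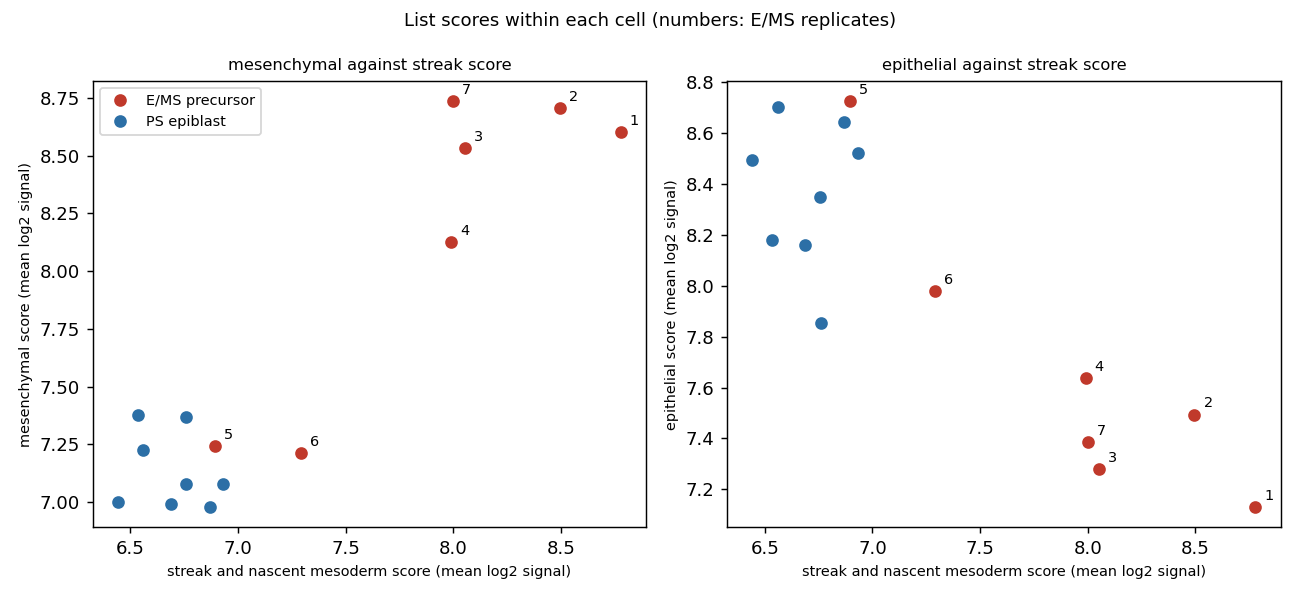
Mean log2 signal of the mesenchymal genes (left) and epithelial genes (right) against that of the streak genes, 1 point per cell, with E/MS replicates numbered. E/MS replicates 5 and 6 lie nearest to the 8 PS cells on both panels.

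The precursors differed among themselves. A score was made for each cell by averaging the log2 signal over a list, and that of the streak list was 7.93 ± 0.65 in E/MS precursors and 6.69 ± 0.17 in PS cells (SD, n = 7 and n = 8). It was highest in replicate 1 at 8.78 and lowest in replicate 5 at 6.89. Over the 7 E/MS precursors the streak score ran with the mesenchymal score (Pearson r = 0.886, Spearman rho = 0.714) and against the epithelial score (r = -0.905, rho = -0.893), given as a description of cells that share 1 protocol. Replicates 5 and 6 lie at the end of both relations, and the 5 cells without them are too few for a correlation. Replicates 5 and 6 held the lowest streak scores and the highest epithelial scores, and 7 and 8 of the 25 streak genes were detected in them, against 11 to 16 in the other 5 precursors. These groupings were seen in the data, and replicate 6 also had the fewest detected genes, whose part in its scores was not tested.

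Replicates 5 and 6 also held genes that most of the other precursors lacked. Sox2, a pluripotency factor, lay at 10.997 and 11.57 in these cells, at 8.11 in replicate 4 and at the floor in the other 4. Its difference was -1.83 with all cells and -3.19 without replicates 5 and 6. Nodal, the TGF-beta ligand of the epiblast, was detected in the same 2 precursors and in 8 of 8 PS cells. PS cells held Nodal at 8.66 to 10.63 (median 9.98). Replicate 5 had the highest germ cell score of the 15 cells, at 8.07. That list holds Prdm1 and Ifitm3, which were used to choose cells. Over its 13 other genes replicate 5 scored 7.64, and the next highest cell, PS replicate 3, 7.29.

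Many genes of the primed epiblast were lower. Of 15 measured members, 8 were lower and 0 higher, with a median of -1.67, which was -1.24 without E/MS replicate 3. Pou3f1 (Oct6), a POU factor of the epiblast, was detected in 1 of 7 E/MS precursors and 7 of 8 PS cells. It lay at 6.13 to 8.82 (median 6.13) in E/MS precursors and 6.13 to 11.88 (median 10.32) in PS cells, overlapping through the positive precursor, replicate 3, and the PS cell at the floor. Pim2, a serine/threonine kinase, had a difference of -2.70, at 6.13 to 11.19 (median 9.44) in E/MS precursors and 11.51 to 12.21 (median 11.97) in PS cells, without overlap. Otx2, a homeobox factor of epiblast and anterior neural plate, lay at 6.13 to 10.33 (median 6.13) in E/MS precursors and 7.74 to 10.01 (median 8.96) in PS cells. Replicate 2, at 10.33, was above every PS cell, and 5 of the other 6 were at the floor.

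Dnmt3b, a de novo DNA methyltransferase of the epiblast, lay at 11.22 to 12.37 (median 11.61) in E/MS precursors and 12.43 to 12.82 (median 12.70) in PS cells. Although the difference was -0.95, under 1 log2 unit, no E/MS precursor reached the lowest PS cell. These values are from the brighter of its probe sets. The other, also detected in all 15 cells, averaged 9.06 in E/MS precursors and 11.14 in PS cells, a difference of -2.08. Fgf5, a growth factor of the epiblast, was detected in 2 of 7 E/MS precursors and 6 of 8 PS cells. Of the 23 genes of the pluripotency network, 3 were lower (Utf1, Sox2 and Nanog) and 1 higher (Tbx3), with a median of -0.05 (0 without PS replicate 4 or 6). Nanog averaged 9.41 ± 1.85 in E/MS precursors and 10.79 ± 0.60 in PS cells (SD, n = 7 and n = 8), and only replicate 3 was at the floor. Without that cell its difference was -0.83, against -1.38 with all cells. Tdgf1, the Nodal co-receptor Cripto, averaged 12.24 ± 0.22 in E/MS precursors and 11.91 ± 0.23 in PS cells.

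Several targets of BMP signalling were higher. Of 25 members of the BMP list, 4 were higher (Msx1, Id1, Msx2 and Smad1) and 0 lower. The median was 0.64, and 0.41 without E/MS replicate 7. Msx2 had a difference of 2.50 with the probe set used and of 0.54 with its other. Msx1, a homeobox target of BMP, lay at 9.95 to 11.19 (median 10.78) in E/MS precursors and 6.13 to 10.33 (median 6.37) in PS cells. Every precursor was positive and 6 of 8 PS cells were below detection, but PS replicate 4, at 10.33, lay within the range of the precursors. Id1, a dominant-negative HLH target of BMP, lay at 10.46 to 12.30 (median 11.95) in E/MS precursors and 6.66 to 11.35 (median 8.95) in PS cells, again overlapping through PS replicate 4. Among ligands, Bmp4 was detected in 2 of 7 E/MS precursors and 1 of 8 PS cells and Bmp8b in 6 of 7 E/MS precursors and 7 of 8 PS cells. Among receptors, Bmpr1a averaged 9.67 ± 0.46 in E/MS precursors and 8.98 ± 1.08 in PS cells.

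Wnt genes that were higher included ligands, a receptor, an antagonist and targets. Of 31 members, 10 were higher and 2 lower (Fzd2 and Tcf7l1), while the median was 0.10 and lay between 0 and 0.10 when 1 cell was left out. Rspo3, which amplifies Wnt signals, was detected in 7 of 7 E/MS precursors and 1 of 8 PS cells and lay at 7.34 to 9.95 (median 9.50) in E/MS precursors and 6.13 to 7.57 (median 6.13) in PS cells. Only replicate 7 lay below the single positive PS cell. Wls, needed to secrete Wnt proteins, averaged 10.76 ± 0.51 in E/MS precursors and 8.74 ± 1.33 in PS cells. Among targets of the pathway, Sp5 had a difference of 2.35 (3.51 without replicates 5 and 6) and Axin2 of 1.15.

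Ligands and 1 secreted antagonist, Dkk1, were also among the 10. Wnt5a, a ligand, was detected in 5 of 7 E/MS precursors and 0 of 8 PS cells, at least 1.42-fold higher in E/MS precursors, and the antagonist Dkk1 in 4 of 7 E/MS precursors and 0 of 8 PS cells, at least 1.44-fold higher. The receptor Fzd1 had a difference of 2.45 and its relative Fzd2 one of -2.11. Frzb, a secreted Wnt antagonist outside this list, had a difference of 2.61. Tcf7l1, a repressor of Wnt targets, averaged 8.84 ± 0.65 in E/MS precursors and 10.15 ± 0.66 in PS cells.

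In the Nodal list, 2 of 16 were higher (Smad3 and Cfc1) and 1, Nodal itself, lower. Smad3 had a difference of 1.68 with all cells and 0.99 without replicates 5 and 6. Fgf3 stood out in the FGF list, where 3 of 20 were higher and 1 lower. It was detected in 5 of 7 E/MS precursors and 0 of 8 PS cells, at least 2.68-fold higher, with replicates 5 and 6 at the floor. Dusp6, a target that dampens FGF signals, averaged 10.31 ± 0.75 in E/MS precursors and 8.85 ± 0.80 in PS cells. In the Notch list, 3 of 21 were higher (the ligands Dll3 and Dll1 and the target Hey1) and 0 lower. The 22 measured Hox genes held 0 higher and 0 lower.

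Genes of the allantois and extraembryonic mesoderm had the highest median of the lists apart from that of sex-linked transcripts, 0.83. Differences here are between means over cells. The median was 0.72 with undetected genes at their bound where it was above 1-fold and otherwise at their floored difference. With medians over cells it was 0. Of 18 members, 8 were higher and 0 lower. Gata6, a zinc finger factor of mesoderm and endoderm, had a difference of 2.66 with the probe set used and of 0.61 and -0.30 with its others. With the probe set used it was detected in 5 of 7 E/MS precursors and 0 of 8 PS cells, at least 1.71-fold higher. Likewise Gata4 was detected in 5 of 7 E/MS precursors and 0 of 8 PS cells, Isl1 in 4 of 7 E/MS precursors and 0 of 8 PS cells, and Kdr, the receptor of vascular endothelial growth factor, in 4 of 7 E/MS precursors and 0 of 8 PS cells. Of the other endoderm markers, Afp, Hhex, Rbp4 and Cited1 were also detected in some E/MS precursors and in 0 of 8 PS cells. Sox17, Foxa2 and Ttr were among those detected in 0 of the 15 cells. Of the 20 measured endoderm genes, 11 were detected in no E/MS precursor and 17 in no PS cell, and the summed signal of the list lay between 1785 and 4370 in E/MS precursors and 1547 and 2372 in PS cells. Among 16 markers of blood and endothelium, 3 were detected in any E/MS precursor and 1 in any PS cell. Among 13 markers of trophoblast, 9 were detected in any E/MS precursor and 9 in any PS cell. The trophoblast score lay at 6.36 to 7.42 in E/MS precursors, highest in replicate 6, and at 6.37 to 6.83 in PS cells. The part of such cells in these results was not tested.

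**Figure D4:**
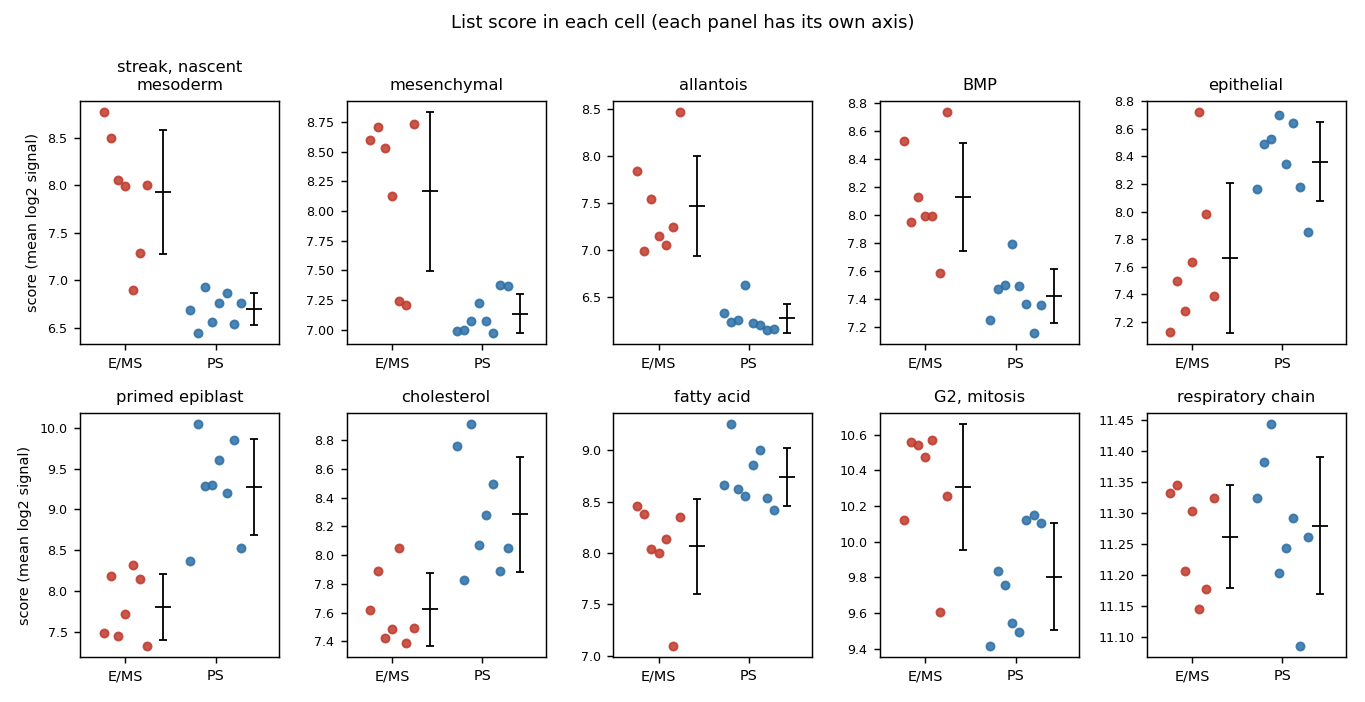
Score (log2 signal averaged over a list) of 10 gene lists in each cell, E/MS precursors left and PS epiblast cells right, with group means and SD in black; each panel has its own axis. The respiratory chain list, drawn as a comparison, overlaps fully between the groups.

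Several genes of sterol and fatty acid synthesis were lower in E/MS precursors. Of 23 cholesterol genes, 7 were lower and 1 (Ebp) higher, with a median of -0.48; of 21 fatty acid genes, 8 were lower and 1 (Elovl1) higher, with a median of -0.42. Sqle, squalene epoxidase, was detected in 2 of 7 E/MS precursors and 8 of 8 PS cells. It lay at 6.13 to 9.63 (median 6.13) in E/MS precursors and 8.98 to 10.83 (median 10.41) in PS cells. The overlap came from replicate 1, which lay above the lowest PS cell. Scd1, a fatty acid desaturase, lay at 6.13 to 7.80 (median 6.13) in E/MS precursors and 6.13 to 10.49 (median 8.93) in PS cells. Its paralog Scd2 averaged 11.72 ± 0.62 in E/MS precursors and 11.46 ± 2.17 in PS cells.

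Srebf1, a regulator of lipid synthesis, averaged 6.88 ± 0.91 in E/MS precursors and 8.84 ± 0.75 in PS cells, and Srebf2, the regulator of sterol synthesis, had a difference of -0.24. Mid1ip1, which activates acetyl-CoA carboxylase, had a difference of -2.82. E/MS replicate 6 had the lowest fatty acid score of the 15 cells, at 7.10. By contrast, the 31 respiratory chain genes held 0 higher and 0 lower, with scores of 11.26 ± 0.08 in E/MS precursors and 11.28 ± 0.11 in PS cells (SD, n = 7 and n = 8). Glycolysis genes held 0 of 20 higher and 1 lower (Slc2a3).

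Some mitotic genes were higher, and few replication genes differed. Of 28 genes of G2 and mitosis, 6 were higher and 0 lower, with a median of 0.50. Top2a, the topoisomerase of mitotic chromosomes, lay at 11.95 to 12.48 (median 12.27) in E/MS precursors and 9.67 to 12.13 (median 11.38) in PS cells. The spread was small in the precursors and the highest PS cells lay among them. Its difference was 1.06, and 0.84 without PS replicate 3 and 0.92 without PS replicate 5. Kif11, a mitotic motor, was detected in 6 of 7 E/MS precursors and 2 of 8 PS cells. Of 32 replication genes, 3 were lower (Gins2, Cdc6 and Orc1) and 0 higher, with a median of -0.29. Ccnd2, a G1 cyclin, had a difference of 1.99.

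Few germ cell genes differed. Of 15 measured members, 2 were higher (Prdm1, used to choose the cells, and Ifitm1) and 1 lower (Ddx4), with a median of 0. Ifitm1, an interferon-induced membrane protein of early PGCs, lay at 9.81 to 12.13 (median 11.64) in E/MS precursors and 8.04 to 10.88 (median 9.80) in PS cells. The groups overlapped. Dppa3 (stella), a marker of established PGCs, was detected in 3 of 7 E/MS precursors and 4 of 8 PS cells, and Prdm14, a regulator of PGC fate, in 0 of 7 E/MS precursors and 0 of 8 PS cells. Tfap2c, another such regulator, was detected in 3 of 7 E/MS precursors and 3 of 8 PS cells.

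On the X chromosome, Xist and Tsga8 were lower without overlap, Xist at least 18.8-fold and Tsga8 at least 4.81-fold. Both were detected in 0 of 7 E/MS precursors and 8 of 8 PS cells. In PGCs of the Early/Mid-Bud stage, Tsga8 was detected in 8 of 8 cells and Xist in 0 of 8. In posterior mesoderm of that stage, Tsga8 was detected in 1 of 10 cells and Xist in 0 of 10. In all, 5 of the 15 largest negative differences, and 0 of the 15 largest positive ones, were in X-linked genes. For comparison, 214 of the 7250 genes that at least 50% of all 106 cells detected were X-linked. Of these 214, 25 (11.7%) were higher and 11 (5.14%) lower by at least 1 log2 unit, so X-linked genes did not run lower in general. Outside the X chromosome, Itga3, an integrin of epithelial cells, was detected in 0 of 7 E/MS precursors and 8 of 8 PS cells and was at least 2.41-fold lower in E/MS precursors. Ppic, a cyclophilin, was the single gene among the 15 largest positive differences whose groups did not overlap. It lay at 8.91 to 11.28 (median 9.28) in E/MS precursors and 6.13 to 8.24 (median 6.93) in PS cells.

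Other genes among the 15 largest differences in each direction belong to no group described above. Rbms1, an RNA-binding protein, lay at 10.17 to 11.99 (median 11.03) in E/MS precursors and 6.13 to 10.39 (median 8.31) in PS cells, and overlapped through PS replicate 4. Greb1 and its relative Greb1l were detected in 7 of 7 E/MS precursors and 2 of 8 PS cells, and in 7 of 7 E/MS precursors and 1 of 8 PS cells. The other probe set of Greb1l went against this, with detection in 14 of the 15 cells and a difference of -0.08. Meis2, a homeobox cofactor, was detected in 7 of 7 E/MS precursors and 2 of 8 PS cells. Among genes that were lower, Nefl, a neurofilament protein, lay at 6.13 to 10.99 (median 9.60) in E/MS precursors and 10.64 to 12.09 (median 11.66) in PS cells, with replicates 3, 5 and 7 at the floor. Mkrn1, a ubiquitin ligase, had a difference of -3.02, and Rasgrp2, an exchange factor for Rap proteins, one of -2.68.

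Later stages of the wild-type lineage separated these genes. Mesp1 averaged 6.56 in PS epiblast, 11.53 in E/MS precursors, 10.60 in Late-Streak/0-Bud (LS/0B) precursors, and then 8.14 in PGCs of the Early/Mid-Bud (E/MB) stage, 6.85 in those of the head fold (EHF) stage and 7.53 in those of E8.25. Mixl1 and Tbx3 were at the floor in every E8.25 PGC. Msx1 and Id1 stayed high there, at 10.53 and 11.15. Of the 15 largest positive differences, 11 had an E8.25 mean nearer to the PS mean than to the E/MS mean, and in E/MB mesoderm 2 did. Genes chosen for a high E/MS mean are prone to lower means elsewhere, so these counts are a description.

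The genes that were lower also split. Camsap3, which caps microtubule minus ends, was already at 10.30 in E/MB PGCs, where Utf1 was at 6.82. In E8.25 PGCs Camsap3 was at 10.40 and Utf1 was back at 9.88. Pim2, at 6.65, Cldn6, at 6.25, and Slc7a3, a transporter of cationic amino acids, at 6.20, were lower still than in E/MS precursors. Of the 15 largest negative differences, 6 had an E8.25 mean nearer to the PS mean than to the E/MS mean.

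**Figure D5:**
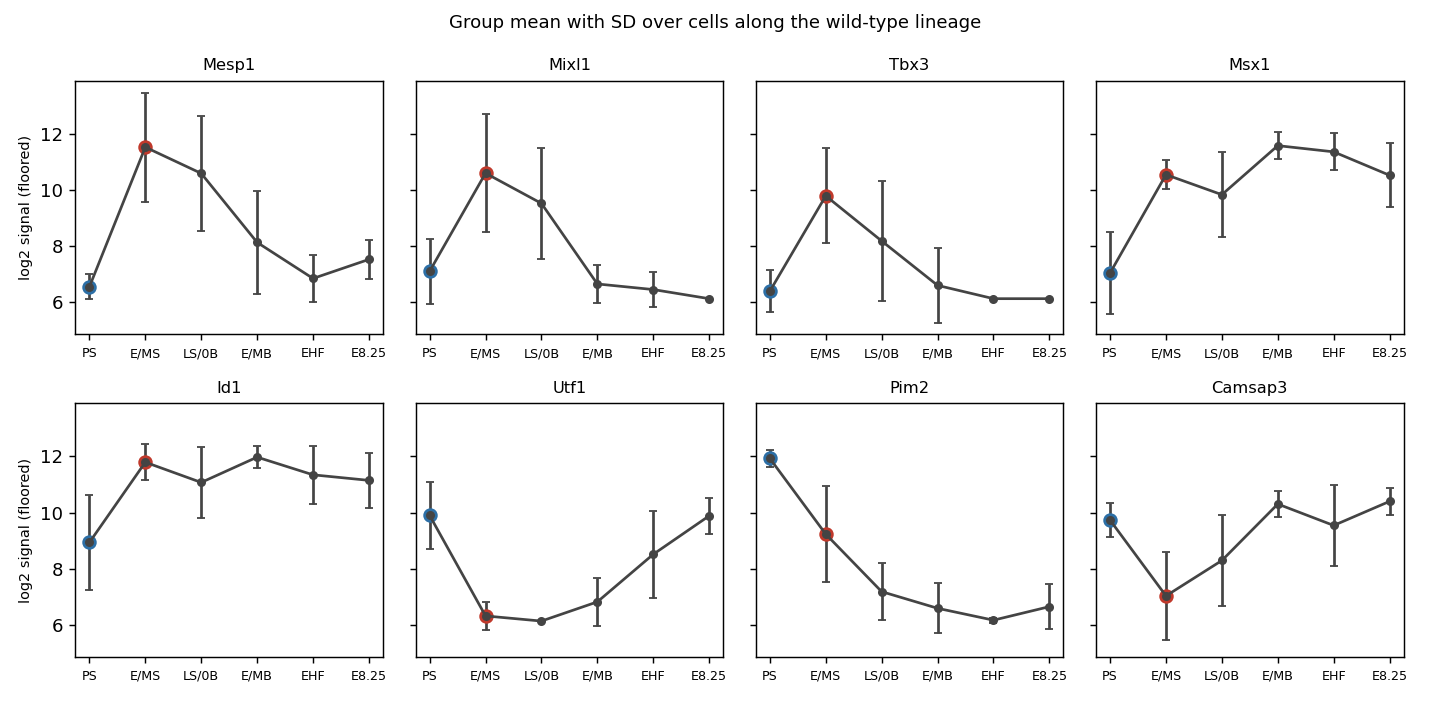
Group mean log2 signal with SD over cells for 8 genes along the wild-type lineage from PS epiblast (blue) and E/MS precursors (red) to E8.25 PGCs. Mesp1, Mixl1 and Tbx3 peak in E/MS precursors, Msx1 and Id1 stay high, and Pim2 is low at every later stage. Camsap3 is high again from E/MB PGCs on, and Utf1 at E8.25.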

How the data were processed

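The deposited values are array intensity on a linear scale. Per the submitters' processing notes, MAS5 made them; its version and scaling target are not given in the sources used. Of the values in the 15 cells, 14.9% stood at the lowest value of 1, 1 value was missing in the table, and 0 pairs of cells were identical. The floor (a signal of 70.2) was the median over cells of the 90th percentile of 126 probe sets of taste, olfactory and vomeronasal receptors and hair keratin-associated proteins. The detection limit was their 95th percentile in each cell, from 104 to 149. Log2 was taken of the deposited intensities after flooring. Of 45101 probe sets, 34945 had 1 symbol, 932 several and 9160 were unnamed; 64 were controls. The probe set with the highest mean over all cells stood for its gene.

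Where a group had 0 detected cells, a fold is a lower bound. It is the brighter group's mean over the mean of the dimmer group's detection limits or own values, whichever was higher, without the floor. Bounds not above 1-fold were not used, and such genes kept their floored difference in list medians. Named genes are the 15 largest positive and negative differences among genes that at least 75% of cells in the higher group detected, then list members, the markers, the genes used to choose cells, and 5 genes that varied most among E/MS precursors. The 34 lists held 689 symbols, 643 of them measured; 41 stood in more than 1 list. Members, lists and motifs were chosen with earlier results of these data known, and genes given outside the rule were chosen after their values were seen. Replicate numbers only name cells. The calculation was tested on simulated data. Python 3.11.15, numpy 2.4.6, pandas 2.3.3 and scipy 1.17.1 were used. The number of arrays limits the precision.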

Additional observations from a re-analysis of the deposited data

Results flagged for a closer look

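Each value here is the highest or lowest of its group of 7 E/MS precursors or 8 PS cells and lies far from the nearest of the others by Dixon's criterion for 1 outlying value. Of 236 sets of values looked at, 46 gave such a value. The criterion's rate of about 1 in 20 holds for normal values. Many sets here hold cells at the floor, and some have no spread at all, so the count cannot be set against that rate. For 16 of the 35 gene values among them, all other cells of their group lay at the floor. Any value above it then stands apart. In 5 of the 16 (Cdh11, Cdh2 and Wnt5a in PS cells, Me1 and Ddx4 in E/MS precursors) the gene was undetected in the group. Values are log2 signal unless named otherwise. E/MS replicate 1 stood apart from its group in Scd1 at 7.80. E/MS replicate 2 stood apart from its group in Id1 at 10.46, Rasgrp2 at 7.80, Otx2 at 10.33, Msx2 at 6.13 and Srebf1 at 8.67. E/MS replicate 3 stood apart from its group in Pou3f1 at 8.82. E/MS replicate 4 stood apart from its group in Me1 at 6.45. E/MS replicate 5 stood apart from its group in Mixl1 at 6.13, Spint1 at 8.47 and Ddx4 at 6.92. E/MS replicate 6 stood apart from its group in Utf1 at 7.41, Kif11 at 6.13, Ccnd2 at 6.13 and Eomes at 6.26. E/MS replicate 7 stood apart from its group in Rspo3 at 7.34 and Pou5f1 at 10.51. PS replicate 1 stood apart from its group in Cdh11 at 6.58, Cdh1 at 10.20, Pdgfra at 8.17 and Hand1 at 8.05. PS replicate 2 stood apart from its group in Greb1l at 8.43. PS replicate 3 stood apart from its group in Sp5 at 9.09. PS replicate 4 stood apart from its group in Msx1 at 10.33, Rasgrp2 at 6.13, Scd1 at 6.13 and Eomes at 7.41. PS replicate 5 stood apart from its group in Tbx3 at 8.26, Rspo3 at 7.57 and Wnt5a at 7.09. PS replicate 7 stood apart from its group in Aplnr at 9.18, Cdh2 at 6.55 and Ifitm3 at 7.77. PS replicate 8 stood apart from its group in Mesp1 at 7.64 and Vcan at 8.26. Among list scores, the values that stood apart were Hox genes in E/MS replicate 7 (6.59), allantois and extraembryonic mesoderm in PS replicate 4 (6.63), fatty acid synthesis in E/MS replicate 6 (7.10), glycolysis in PS replicate 8 (10.01), apoptosis in PS replicate 7 (7.36) and housekeeping in E/MS replicate 6 (11.15). Among measures of the arrays, E/MS replicate 6 had 9776 detected probe sets, the fewest, and a highest signal of 99293. E/MS replicate 5 had the highest hybridisation controls of its group at 10.67, PS replicate 5 had a highest signal of 28866, and PS replicate 8 had the lowest trimmed mean of its group at 168.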

How the results depend on the processing

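No paired analysis was possible because each group counted as 1 sample and the replicate numbers only name cells. Of the 73 named genes past 1 log2 unit, 73 kept their direction under every alternative that could be run on them, and 64 stayed past it with the mean over probe sets. Without the floor, 1772 genes were higher and 2022 lower, and list medians were 1.47 (streak), -1.30 (epithelial), -2.09 (primed epiblast), -0.14 (Hox), 2.74 (allantois), 0.17 (extracellular matrix), 0.58 (guidance), -1.11 (cholesterol) and 4.21 (sex transcripts). With a higher floor, 314 were higher and 326 lower, and primed epiblast was -1.21. With the mean over probe sets, 231 were higher and 283 lower, and sex transcripts were 0.39. That list mixes Xist with Y-linked genes, so its median has no single direction. With medians over cells, 762 were higher and 829 lower, and the FGF, allantois and guidance medians were 0. Over genes that 4 or more of the 15 cells detected, medians were 2.10 (streak), 2.35 (mesenchymal), 0.40 (Nodal), -0.15 (Hox), 2.43 (allantois), -0.17 (extracellular matrix), 0.41 (guidance), 0.38 (connexins), -0.36 (cell cycle inhibitors), -0.43 (DNA methylation), 1.19 (endoderm), 1.38 (blood) and -1.83 (neural plate), since fewer genes enter. Leaving out 1 replicate gave 483 to 624 higher, 515 to 627 lower, -1.88 to -1.24 for primed epiblast and 0.044 to 0.26 for guidance, lowest without E/MS replicate 5. Leaving out single cells also moved medians of small size: Nodal lay between 0.02 and 0.24, Wnt between 0 and 0.10, glycolysis between -0.10 and 0.0045, the respiratory chain between -0.08 and -0.01, histone methylation between -0.15 and 0.08, and retinoic acid between 0 and 0.14. Single cells further moved DNA methylation (-0.15 without PS replicate 2) and apoptosis (-0.24 without PS replicate 7). Without E/MS replicates 5 and 6, an alternative chosen after seeing the data, 732 genes were higher and 599 lower. The cause of these moves was otherwise not tested. Signal near background limits all of these medians.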

Other observations

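Further groups of genes differed in some members. In the list of extracellular matrix and integrins, 5 of 31 were higher and 4 lower, with a median of 0. Vcan, the proteoglycan versican, was detected in 5 of 7 E/MS precursors and 1 of 8 PS cells, and Has2, which makes hyaluronan, in 6 of 7 E/MS precursors and 3 of 8 PS cells. Col18a1, a basement membrane collagen, averaged 7.89 ± 1.99 in E/MS precursors and 10.78 ± 0.46 in PS cells (SD, n = 7 and n = 8), and the laminin chain Lama5 had a difference of -1.07. Cyp26a1, which degrades retinoic acid, was detected in 4 of 7 E/MS precursors (replicates 1 to 4) and 0 of 8 PS cells. It had no lower bound above 1-fold. Crabp2 and Rarg, also of the retinoic acid list, were lower. Epha2, an ephrin receptor, was detected in 2 of 7 E/MS precursors and 6 of 8 PS cells, and its relative Epha4 was among 3 guidance genes that were higher. Jun, an immediate early factor, was detected in 5 of 7 E/MS precursors and 2 of 8 PS cells.

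Genes with no overlap included several outside every list, chosen here after their values were seen. Prtg, protogenin, a surface receptor of the early embryo, lay at 11.26 to 12.12 (median 11.74) in E/MS precursors and 9.92 to 11.03 (median 10.41) in PS cells. Gpx4, a glutathione peroxidase, lay at 11.07 to 11.96 (median 11.19) in E/MS precursors and 9.51 to 11.07 (median 10.24) in PS cells. Rpa3, a subunit of a single-strand DNA-binding complex, had a difference of 2.25, and Tex101 was at the floor in every E/MS precursor and at 8.60 to 9.05 (median 8.72) in PS cells.

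Among broadly detected genes, 25 of 214 X-linked genes (11.7%) were higher and 11 (5.14%) lower in E/MS precursors, against 351 (4.99%) and 368 (5.23%) of 7030 autosomal genes. The X-linked median was 0.11 and the autosomal median -0.04. Rps6ka6, an X-linked kinase, lay at 11.12 to 11.98 (median 11.67) in E/MS precursors and 8.05 to 10.74 (median 10.56) in PS cells. The sexes and the stages cannot be told apart in these values.

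E/MS replicate 5, a cell chosen after its values were seen, held some genes at levels outside the range of the other 6 precursors. Fos lay at 11.14 in it and between 6.13 and 9.38 in the other 6. Igfbp3 lay at 12.21 in it and between 6.13 and 10.90 in the other 6, so that another precursor also held it. Wnt5b lay at the floor in it and between 8.94 and 11.03 in the other 6.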
